A study of Homo sapiens with 4 samples.

Results

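The 9 genes described here encode histone variants whose genes lie outside the replication-dependent histone clusters: H3-3A and H3-3B, H2AZ1 and H2AZ2, H2AX, H2AJ, MACROH2A1 and MACROH2A2, and the linker histone gene H1-10. They were taken from a list of gene names and were found by Ensembl identifier among the 64252 genes of the count table. Cells of the line labelled NB4 were treated for 24 h with 8 μM dBET1 (2 libraries) or with DMSO, the control (2 libraries). Their total RNA was extracted for sequencing. NB4 is an acute promyelocytic leukemia cell line with the PML-RARa fusion. dBET1 is a PROTAC, a molecule that joins a ligand of BET bromodomain proteins to a ligand of cereblon (CRBN), an adaptor of an E3 ubiquitin ligase. The labels name no transgene or knockdown in either group. They do not say whether replicates were separate cultures, and the methods speak of repeats only for experiments in general, so that p-values may measure technical spread only.

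Most histone messages are made in S phase from clustered genes without introns, and they end in a stem-loop in place of a poly(A) tail. The variant genes are instead transcribed through the cell cycle, and most give spliced, polyadenylated messages. Their products replace the S phase histones at particular places: H3.3 marks active genes and silent repeats, H2A.Z sits beside promoters, phosphorylated H2AX marks broken DNA, macroH2A is found on repressed chromatin, and H1.10 is a linker histone. BET proteins bind acetylated histone tails.

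The sequences show how far the counts of similar genes can be separated. H3-3A (chromosome 1 of hg38, 226061851 to 226072019, forward strand, 4 exons) and H3-3B (chromosome 17, 75776434 to 75785893, reverse strand, 4 exons) encode the same protein, but over their 411 coding bases they differed at 88 positions (78.6% identity), and the longest identical run was 14 bases. H2AZ1 (chromosome 4, 99948086 to 99950355, reverse strand, 5 exons) and H2AZ2 (chromosome 7, 44826791 to 44848087, reverse strand, 5 exons) differed at 76 of 387 coding bases (80.4% identity), with a longest identical run of 23 bases. The coding bases 1 to 90 of each pair, from the GENCODE 44 transcripts, are shown from 5′ to 3′, in capitals where the partners differ, with 21 differing bases in the first pair and 19 in the second pair.
H3-3A: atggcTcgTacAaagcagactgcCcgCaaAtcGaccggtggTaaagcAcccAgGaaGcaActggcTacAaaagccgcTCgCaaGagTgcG
H3-3B: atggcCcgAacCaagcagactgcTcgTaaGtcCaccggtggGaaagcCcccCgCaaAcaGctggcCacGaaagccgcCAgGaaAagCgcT
H2AZ1: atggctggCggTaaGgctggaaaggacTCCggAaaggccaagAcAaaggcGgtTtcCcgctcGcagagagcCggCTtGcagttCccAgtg
H2AZ2: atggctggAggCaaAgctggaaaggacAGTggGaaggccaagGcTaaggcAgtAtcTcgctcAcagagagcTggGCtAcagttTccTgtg

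H2AX (chromosome 11 of hg38, 119093874 to 119095465, reverse strand, 1 exon) was the 1 member whose annotated message carried the stem-loop of the clustered histone genes. The pattern searched on the message strand of the 3′ untranslated regions was GGNNNT, a loop TNTN and ANNNCC in 1 run, with all 6 stem positions paired (G with T allowed). It was found in the canonical transcripts of 65 of 65 clustered histone genes and in 108 of 19550 coding genes (0.552%). In H2AX it started 50 bases after the stop codon, at chromosome 11, 119094898 to 119094913, in the 3′ untranslated region, and the capitals below mark the paired stem.
H2AX stem-loop: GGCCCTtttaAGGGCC

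The 250 bases before the start of H1-10 (chromosome 3 of hg38, 129314771 to 129316286, reverse strand, 1 exon) and of H2AX are shown because these genes had the 2 most positive log2 fold changes among the members. They were taken from RefSeq (GRCh38.p14), which had such a window for each of the 9 genes, and are printed 5′ to 3′ on the strand of the gene. Capitals mark CCAAT and TATAAA on either strand, the boxes of many histone promoters. The H1-10 window is chr3:129316287-129316536 and the H2AX window chr11:119095466-119095715.
H1-10: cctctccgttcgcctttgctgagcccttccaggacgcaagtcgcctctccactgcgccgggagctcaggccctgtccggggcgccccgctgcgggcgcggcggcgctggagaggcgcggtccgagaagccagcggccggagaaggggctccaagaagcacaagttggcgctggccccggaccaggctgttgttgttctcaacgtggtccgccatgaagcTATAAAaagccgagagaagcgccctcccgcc
H2AX: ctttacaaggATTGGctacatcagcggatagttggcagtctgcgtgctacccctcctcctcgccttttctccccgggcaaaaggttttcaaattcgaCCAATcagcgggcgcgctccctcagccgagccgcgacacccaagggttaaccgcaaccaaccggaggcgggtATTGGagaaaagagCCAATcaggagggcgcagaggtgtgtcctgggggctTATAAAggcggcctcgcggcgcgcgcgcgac
H2AX held 4 CCAAT matches and 1 TATAAA match, H2AZ1 held 3 and 1, H3-3B held 4 and 1, and H1-10 held 0 and 1. CCAAT was found in 32% of 35116 RefSeq windows of this length, TATAAA in 10.7%, and both in 3.81%, against 56.2% of 64 clustered histone genes. H2AX, H2AZ1 and H3-3B, the members with both, did not share a direction of change after dBET1: H2AX rose while H2AZ1 and H3-3B fell. A match is a run of letters and was not tested as a binding site. CACGTG, the E-box bound by MYC and other factors, was searched on both strands as well and was found in none of the 9 windows and in 6.34% of all windows.

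Library totals ran from 28019956 to 34685645 counts, and the count filter kept 17971 genes for the test. At an adjusted p under 0.05, 55.6% of the tested genes were called (28% higher and 27.6% lower after dBET1), and at the thresholds of the study's methods, which add an absolute log2 fold change above 1, 25.4% were called (16.9% higher and 8.54% lower). The groups of 2 libraries did not overlap in CPM (counts scaled to a common library size with TMM factors) for 79.3% of the tested genes. The cell type label was checked against markers. The granule and erythroid genes below went against the label of a promyelocytic line, which was kept as given. What the cells are was not tested further. Of 5 genes of promyelocyte granules, ELANE and CTSG were at 0 in every library, and all 5, with AZU1, MPO and PRTN3, came to 15 to 55 counts per library. The 9 erythroid genes examined, among them GATA1, KLF1 and the globin genes, summed to 109957 to 206378 counts. All 9 of them were lower after dBET1, with summed levels of 6034 and 7344 CPM with DMSO and 3691 and 3602 CPM with dBET1, and their part in the results below was not tested. Of 6 lymphoid genes, 4 passed the count filter, and CD3D, with 912 and 899 counts under DMSO and 332 and 325 under dBET1, was the 1 that was called, as lower. In such bulk RNA, fewer cells of a type and less RNA per cell cannot be told apart.

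Of the 9 variant genes, 7 passed the count filter, and each of these 7 was called at an adjusted p under 0.05: H1-10, H2AX and H3-3A were higher, and H2AZ1, H2AZ2, H3-3B and MACROH2A1 were lower after dBET1. H1-10 alone also passed the fold change limit, so that 0 members were lower past both thresholds (0 also at an unadjusted p and 0 with DESeq2). These 3 higher and 4 lower genes stand beside 28% and 27.6% of all tested genes, and beside 13.6% higher and 62.1% lower among the 1798 most abundant tested genes, the top abundance class, in which all 7 lay. The plot of levels by library shows each of them. H2AJ and MACROH2A2 had at most 5 counts in any library and were not tested.

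**Figure D1:**
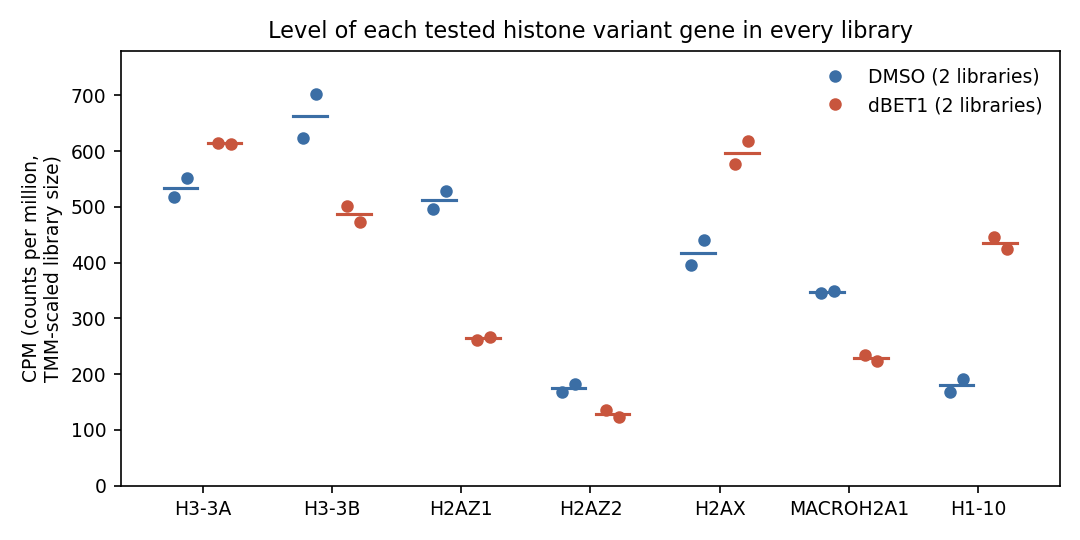
Level of each tested histone variant gene (CPM, vertical axis) in the 4 libraries, with blue points for the 2 DMSO libraries, red points for the 2 dBET1 libraries and a short line at each group's mean. The largest relative separation is that of H1-10, at 168 and 191 CPM with DMSO and 447 and 425 CPM with dBET1, while the points of H3-3A lie close together at 518 and 551 CPM and 615 and 613 CPM.

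H1-10, the gene of the replication-independent linker histone H1.10 (also named H1x), showed the largest change of the tested members. It was at 168 and 191 CPM with DMSO and reached 447 and 425 CPM with dBET1. The lower dBET1 value was more than 2 times the higher DMSO value, so the groups were well apart. Values after ± are SDs over the 2 libraries of a group (n = 2), and SE stands for the standard error of the log2 value. The means were 179.6 ± 16.3 and 436 ± 15.1 CPM, a 2.43-fold rise with a log2 fold change of 1.28 (SE 0.0849 and adjusted p = 2.34e-05). Among the 1798 genes of the top abundance class, 99.3% had a log2 fold change at or below that of H1-10. An antisense gene, H1-10-AS1, overlaps 345 exon bases of H1-10 on the other strand, and it had 7 to 24 counts per library against 5373 to 13406 for H1-10.

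H2AX, whose product is phosphorylated around DNA breaks, was at 395 and 441 CPM with DMSO and at 576 and 618 CPM with dBET1. Both dBET1 libraries were above both DMSO libraries. The rise was 1.43-fold, from a mean of 418 ± 32.0 to 597 ± 29.3 CPM, with a log2 fold change of 0.51 (SE 0.0809 and adjusted p = 0.00122). It is the member whose message can end at the stem-loop printed above. How far messages without a poly(A) tail entered the libraries was not tested, and the count of a gene does not show where its messages ended.

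The genes of H3.3 moved in opposite directions. H3-3A was at 518 and 551 CPM with DMSO and at 615 and 613 CPM with dBET1, and H3-3B was at 623 and 702 CPM with DMSO and at 501 and 472 CPM with dBET1. Neither gene's groups overlapped, but the step of H3-3A was small. H3-3A rose 1.15-fold, with a log2 fold change of 0.20 (SE 0.0692 and adjusted p = 0.0400), and this call was lost under 7 of 11 alternatives, with adjusted p = 0.0780 when the replicate number was a block, 0.0517 without DMSO replicate 1, 0.277 without dBET1 replicate 1 and 0.287 without dBET1 replicate 2. H3-3B fell to 0.735 of its DMSO level, from a mean of 662 ± 55.9 to 487 ± 20.6 CPM, with a log2 fold change of -0.45 (SE 0.0817 and adjusted p = 0.00256).

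Since both genes make the same protein, their sum and their balance were followed within each library. H3-3B supplied 54.6% and 56.0% of the H3.3 counts with DMSO and 44.9% and 43.5% with dBET1. The more counted gene of the pair thus switched from H3-3B to H3-3A in both dBET1 libraries. This holds for raw counts only, since the canonical transcripts have 2705 bases (H3-3B) and 1070 bases (H3-3A). Per kilobase, H3-3A led H3-3B in both groups, at 499.7 against 245 CPM with DMSO and 574 against 179.9 CPM with dBET1. The log2 ratio of H3-3B to H3-3A, which does not depend on the scaling between libraries, went from 0.31 to -0.34, a difference of -0.64, against an SD of 0.0575 and 0.0576 between replicates. An exact permutation test of 2 against 2 libraries gave p = 0.333, the smallest it can give. The sum of both genes was at 1141 and 1254 CPM with DMSO and at 1116 and 1085 CPM with dBET1, a log2 difference of -0.12. This sum takes no account of length, so that the longer H3-3B message weighs more in it. The sign of its small difference depended on the length used. By the values per kilobase above, the sum was slightly higher with dBET1. Per kilobase of all annotated exons it was slightly lower, with H3-3A at 139.7 and H3-3B at 108 CPM with DMSO, and 160.5 and 79.3 CPM with dBET1.

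Copies of H3-3A elsewhere in the genome can take some of its reads. Of 47 annotated H3 pseudogenes, H3P6 had the most, at 1092 and 802 counts under DMSO and 995 and 1158 counts under dBET1. Its sequence was identical to the coding sequence of H3-3A over all 411 bases, and its counts came to 5.17% to 6.46% of those of H3-3A. The next copy near H3-3A, H3P16 (99.3% identity), had 41 to 82 counts. With both copies added to H3-3A, an alternative chosen after the data were seen, the log2 fold change was 0.20 (adjusted p = 0.0384). H3-3B shares 179 exon bases on the other strand with UNK, a gene of 933 to 1225 counts per library, and without a stated strand setting such reads cannot be assigned.

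The H2A.Z genes both fell. H2AZ1 was at 496 and 528 CPM with DMSO and at 262 and 267 CPM with dBET1. Its 2 dBET1 libraries lay close together and far below both DMSO libraries. The level went from a mean of 512 ± 22.8 to 264 ± 3.23 CPM, to 0.516 of the DMSO level, with a log2 fold change of -0.95 (SE 0.0710 and adjusted p = 3.58e-05). This was just short of the limit of 1, which it passed without DMSO replicate 1, at -1.03, and with no filter on low counts.

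H2AZ2, which encodes the second form of H2A.Z, was at 168 and 183 CPM with DMSO and at 136 and 122 CPM with dBET1. The groups did not overlap, and the gap between them was narrower than for H2AZ1. The log2 fold change was -0.44 (SE 0.0863 and adjusted p = 0.00337), and without dBET1 replicate 2 it was -0.39 with an adjusted p of 0.0562. H2AZ2 supplied 25.3% and 25.7% of the H2A.Z counts with DMSO and 34.1% and 31.5% with dBET1. The log2 ratio of H2AZ2 to H2AZ1 rose by 0.51, with SDs of 0.0226 and 0.123 between replicates (exact permutation test, p = 0.333, the smallest possible). Together the H2A.Z genes went from 664 and 711 CPM to 398 and 389 CPM, a log2 difference of -0.81. These shares and sums take no account of length, with canonical transcripts of 866 bases (H2AZ1) and 3026 bases (H2AZ2). The 8 annotated H2A.Z pseudogenes summed to 57 to 97 counts per library.

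**Figure D2:**
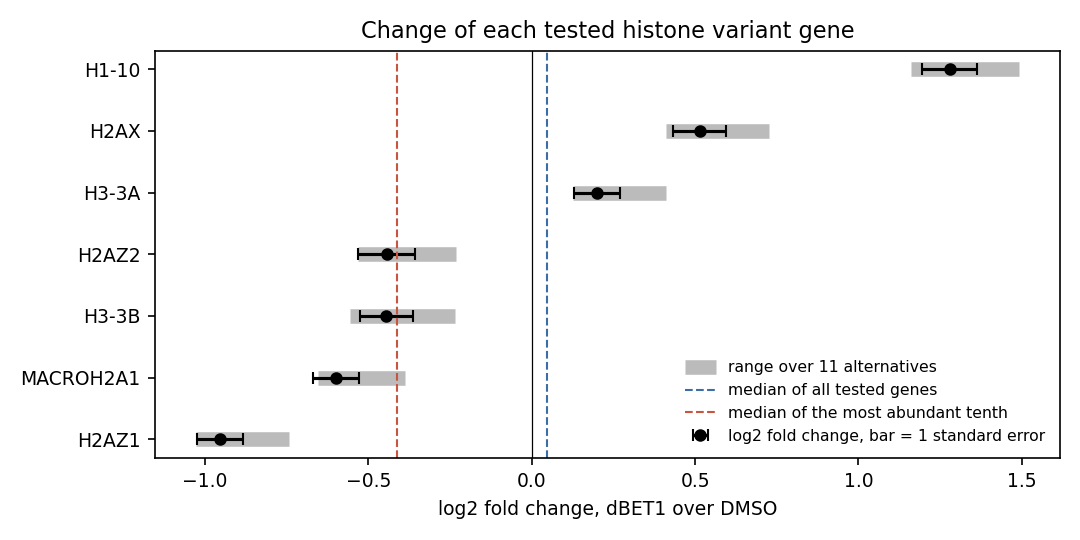
Log2 fold change of each tested variant gene, dBET1 over DMSO, with 1 standard error (black), its range over 11 alternative analyses (grey bars), and dashed lines at the median of all tested genes (0.048) and of the 1798 most abundant genes (-0.41). H1-10 lies far to the right at 1.28, H2AZ1 farthest to the left at -0.95, and H2AZ2 and H3-3B lie beside the median of their abundance class.

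MACROH2A1 (chromosome 5 of hg38, 135334381 to 135399914, reverse strand, 9 exons), which encodes the large H2A variant with a macro domain, fell. It was at 345 and 350 CPM with DMSO and at 235 and 223 CPM with dBET1, with no overlap. It fell from a mean of 347 ± 3.67 to 229 ± 8.43 CPM, a log2 fold change of -0.60 (SE 0.0700 and adjusted p = 0.000273). Its paralog MACROH2A2 (chromosome 10, 70052544 to 70112282, forward strand) had 3 and 2 counts under DMSO and 2 and 5 counts under dBET1, from 0.0203% to 0.0733% of the macroH2A counts. H2AJ (chromosome 12, 14774405 to 14778002, forward strand), a variant close to the S phase H2A, had 0 counts in 3 libraries and 2 counts in dBET1 replicate 2. At these counts no change of H2AJ or MACROH2A2 was detectable. MACROH2A2 also shares 986 exon bases on the other strand with AIFM2, which had 680 to 1291 counts per library.

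The abundance of the genes bears on how these changes are read. Over all tested genes the median log2 fold change was 0.048, but over 10 classes of equal size it ran from 1.19 among the least abundant genes to -0.41 in the top class, where 244 genes were higher and 1117 were lower. Against the median of this class, H1-10 stood 1.69 above, H2AX 0.93 above and H3-3A 0.61 above on the log2 scale. H2AZ1 stood 0.54 below and MACROH2A1 0.19 below, whereas H2AZ2 and H3-3B were within 0.033 of it. Of the genes of this class, 94.3% had a log2 fold change at or below that of H2AX, 85.4% at or below that of H3-3A and 18.9% at or below that of H2AZ1. With total counts alone as the scale, the median of all genes was 0.26 in place of 0.048, and every tested member kept its direction.

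**Figure D3:**
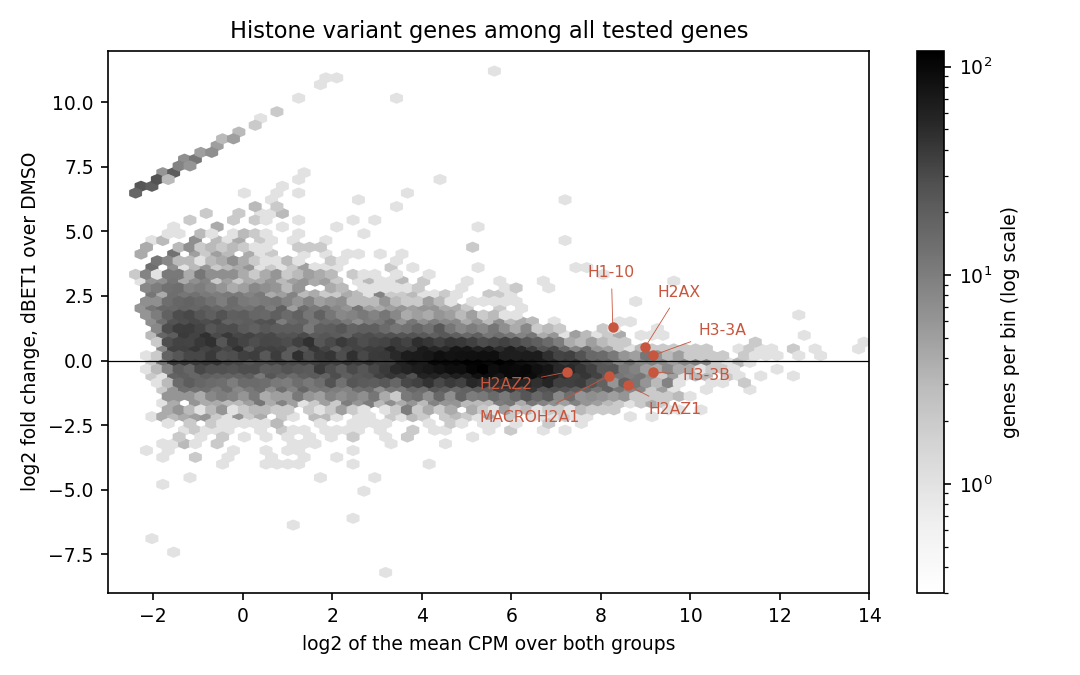
Log2 fold change (vertical axis) against the log2 of the mean CPM over both groups (horizontal axis) for all 17971 tested genes, shaded by the number of genes per bin on a log scale, with the 7 tested variant genes as red points. The cloud tilts downwards with abundance, the variant genes sit at its abundant end, and H1-10 lies at its upper edge at 1.28. The stripe at the upper left holds genes with no count in the DMSO libraries, whose fold changes depend on the prior count.

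Levels of different genes were compared per kilobase of the canonical transcript. With DMSO the order was H2AZ1 (591 ± 26.3 CPM per kb), H3-3A (499.7 ± 22.3), H2AX (263 ± 20.1), H3-3B (245 ± 20.7), MACROH2A1 (181 ± 1.92), H1-10 (118 ± 10.8) and H2AZ2 (58.0 ± 3.49 CPM per kb). The libraries of H2AX and H3-3B overlapped in this order, and those of the other neighbours did not. With dBET1, H3-3A led at 574 ± 1.39 CPM per kb, before H2AX at 375 ± 18.4, H2AZ1 at 305 ± 3.73 and H1-10 at 288 ± 9.97 CPM per kb. H3-3B followed at 179.9 ± 7.62, MACROH2A1 at 119.6 ± 4.40 and H2AZ2 at 42.6 ± 3.11 CPM per kb, and no neighbours overlapped. The order rests on the lengths used: per kilobase of all annotated exons, chosen as an alternative after the data were seen, H2AX came first with DMSO (263 CPM per kb), before H2AZ1 (226) and H3-3A (139.7 CPM per kb). With dBET1, H2AX also came first by that length (375 CPM per kb), before H1-10 (288), H3-3A (160.5) and H2AZ1 (116.4 CPM per kb).

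The variant genes were set beside the clustered histone genes, which supply the S phase histones. Summed without regard to length, the 9 variant genes were at 2713 and 2946 CPM with DMSO and at 2772 and 2740 CPM with dBET1, so that the dBET1 libraries lay between the DMSO libraries. The 65 clustered genes summed to 1177 and 1212 CPM with DMSO and to 2690 and 2635 CPM with dBET1. Of the 55 clustered genes tested, 52 rose and 0 fell in the edgeR fit, beside 28% higher and 27.6% lower of all tested genes. Likewise, 0 fell at an unadjusted p under 0.05 and 0 with DESeq2. The median log2 fold change was 2.25. Some of these genes, such as H3C8 with 0 counts in each DMSO library, passed the count filter through the dBET1 libraries and could only rise. With at least 10 counts in every library, 39 rose and 0 fell, with a median of 1.99. The median of the 7 tested variant genes was -0.44. The groups differ in abundance: these 7 genes lay in the top class, with a median of -0.41, against 1.19 in the least abundant class. The clustered genes were not placed in classes. H2BC12 and H1-2, the clustered genes of highest CPM, at 403 and 321 CPM with DMSO, had log2 fold changes of 0.24 and 0.96. These 2 groups were not tested against each other, and near-identical clustered genes can share reads.

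The share of the variants within each histone family moved. H3-3A and H3-3B supplied 96.5% and 96.5% of the counts of the H3.3 and clustered H3 genes together with DMSO and 80.4% and 80.5% with dBET1, while the counts of the 11 clustered H3 genes went from 1363 and 1293 to 8145 and 8024. CENPA, at 892 to 1218 counts per library, was left out of these sums. Among the clustered H3 genes, H3C14 went from 107 and 103 counts with DMSO to 2092 and 2022 with dBET1. H3C15 went from 103 and 102 to 2186 and 2036 counts. The counts of H3C14 and H3C15 were thus close in every library, and whether these genes shared reads was not tested. The H2A.Z genes supplied 42.6% and 42.9% of the counts of the clustered H2A genes, H2A.Z, H2AX, H2AJ and macroH2A with DMSO and 22.6% and 21.9% with dBET1. H2AX supplied 25.4% and 26.6% of the same sum with DMSO and 32.8% and 34.9% with dBET1, an opposite move within the same family. H1-10 supplied 36.4% and 35.04% of its sum with 7 other H1 genes with DMSO and 40.6% and 40.0% with dBET1, while the summed counts of those 7 genes went from 9606 and 9963 to 19631 and 19472. In each of these 4 comparisons the groups did not overlap, and an exact test of 2 against 2 libraries cannot give a p below 0.333. Messages without a poly(A) tail can be counted incompletely, and counts were not corrected for length, so these shares describe the libraries and not the protein.

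**Figure D4:**
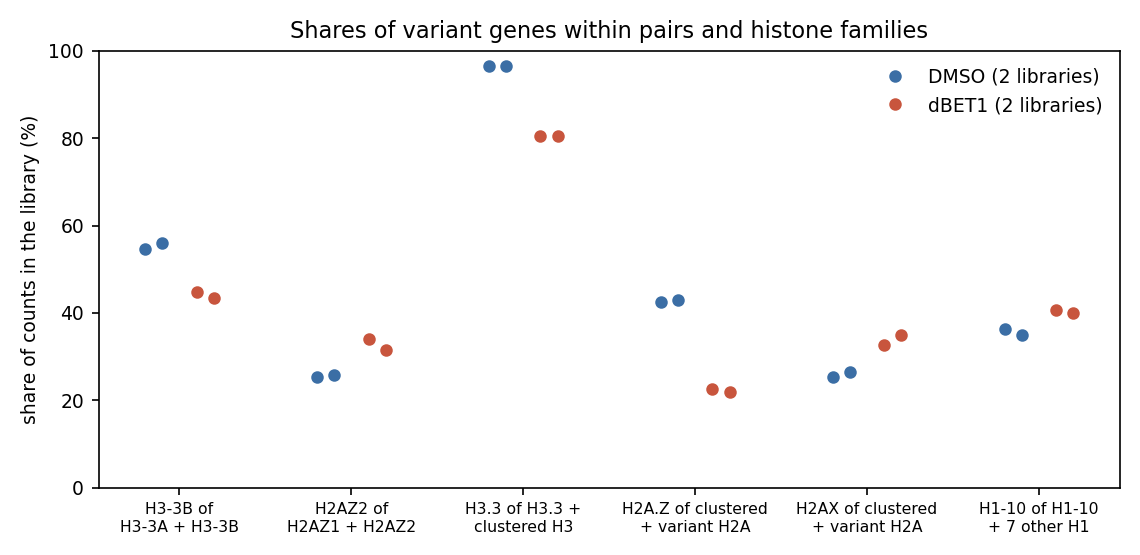
Share of counts in each library (%, vertical axis) supplied by one gene of a pair (2 left columns) or by variant genes within a histone family (4 right columns), with blue points for the DMSO libraries and red points for the dBET1 libraries. The share of H3-3B in its pair falls from 54.6% and 56.0% to 44.9% and 43.5%, and that of the H3.3 genes in their sum with the clustered H3 genes falls from 96.5% to 80.4% and 80.5%.

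Other replication-independent histone genes were nearly silent. Of 13 such genes listed, 12 were in the count table and only CENPA, the gene of the centromeric H3 variant, passed the count filter. CENPA was at 33.9 and 31.7 CPM with DMSO and at 40.6 and 37.0 CPM with dBET1. Its groups did not overlap, but its log2 fold change of 0.24 (SE 0.102) did not pass the test (adjusted p = 0.0783). The oocyte and testis genes H1-7, H1-8, H3-5, H2AB1, H2BW1 and H3Y1 and their relatives had at most 15 counts in any library.

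The factors that place the variants in chromatin moved unevenly. Their counts are read beside 28% higher and 27.6% lower of all tested genes, and beside 13.6% higher and 62.1% lower in the top abundance class. The list genes were not placed in abundance classes. The share lower was 54.1% in the class below the top and 3.01% in the least abundant class. In the list for H3.3 deposition, 2 of 8 genes were higher and 3 were lower, with a median log2 fold change of 0.064. HIRA, the subunit that names the H3.3 chaperone complex outside of heterochromatin, went from a mean of 345 ± 8.01 to 268 ± 9.01 CPM, a log2 fold change of -0.36 (adjusted p = 0.00330). DAXX, which loads H3.3 at telomeres and repeats together with ATRX, had a log2 fold change of -0.93 (SE 0.158 and adjusted p = 0.00177), and the histone chaperone ASF1A one of -0.75 (adjusted p = 0.00207). ASF1B, a second ASF1 chaperone, and UBN2, a partner of HIRA, rose 1.69-fold and 1.66-fold, and are named here after their values were seen.

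In the list for H2A.Z exchange by the SRCAP, TIP60 and INO80 complexes, 12 of 22 genes were lower, 2 were higher and 8 did not pass the test, with a median log2 fold change of -0.33, where 27.6% of all tested genes and 62.1% of the top abundance class were lower. The paired ATPases RUVBL1 and RUVBL2, shared by these complexes, fell the most. RUVBL2 was at 406 ± 33.1 CPM with DMSO and 136 ± 1.89 CPM with dBET1, a log2 fold change of -1.58 (SE 0.0817 and adjusted p = 1.17e-05), and RUVBL1 had a log2 fold change of -1.38 (adjusted p = 1.33e-05). BRD8, the bromodomain subunit of the TIP60 complex, rose 2.09-fold, from a mean of 85.0 ± 1.77 to 177 ± 7.12 CPM, and EPC1 of the same complex rose 1.38-fold. RUVBL1 and RUVBL2 also serve other complexes, such as the assembly of ribonucleoproteins.

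Of the 10 genes that act on or through H2AX, 5 were higher and 4 were lower, with a median log2 fold change of 0.22. Among all tested genes 28% were higher and 27.6% lower, and in the top abundance class 13.6% and 62.1%. ATM, the kinase that phosphorylates H2AX at breaks, rose 2.26-fold, from a mean of 32.2 ± 6.01 to 73.0 ± 3.84 CPM (adjusted p = 0.000221). PRKDC, the catalytic subunit of DNA-dependent protein kinase, fell from a mean of 932 ± 116 to 634 ± 4.96 CPM, and BAZ1B, a kinase of another residue of H2AX, had a log2 fold change of -0.43 (adjusted p = 0.00168). No one direction held in this list.

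Of 14 general histone chaperones, 10 were lower and 1 was higher, with a median log2 fold change of -0.61, beside 27.6% of all tested genes and 62.1% of the top abundance class lower. NPM1, the most counted of them, fell from a mean of 2214 ± 14.3 to 1301 ± 11.0 CPM. SSRP1, a subunit of the FACT complex, fell to 0.426 of its DMSO level (adjusted p = 1.33e-05), and NASP, a carrier of H3 and H4, fell to 0.499 of it (adjusted p = 2.66e-05). SUPT6H, a chaperone that travels with RNA polymerase II, rose 1.16-fold (adjusted p = 0.0348), a call lost with DESeq2, with no filter, with the replicate block and without dBET1 replicate 1 or dBET1 replicate 2. Among 9 factors of histone message 3′ ends, 3 fell and 0 rose in the edgeR fit (0 rose at an unadjusted p under 0.05 and 0 with DESeq2). SLBP, which binds the stem-loop printed above, fell from a mean of 224 ± 0.240 to 128 ± 0.931 CPM, and LSM10, of the U7 particle, fell to 0.464 of its DMSO level (adjusted p = 6.42e-05). All these lists are read beside a median of 0.048 over all tested genes and of -0.41 in the top abundance class.

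**Figure D5:**
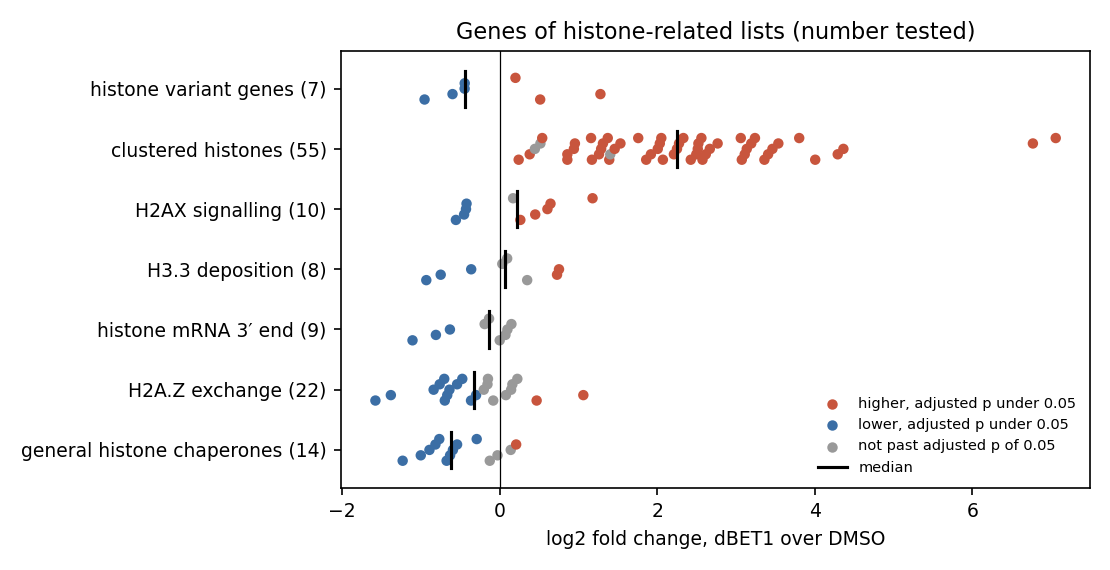
Log2 fold change of each tested gene (horizontal axis), dBET1 over DMSO, in 7 groups, with red for higher, blue for lower and grey for not past an adjusted p of 0.05, and a black line at each median. The variant genes fall on both sides of 0 with a median of -0.44, the clustered histone genes lie to the right with a median of 2.25, and the general chaperones lie mostly to the left with a median of -0.61.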

How the data were processed

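Total RNA was extracted for 4 libraries, 2 treated with dBET1 and 2 with DMSO, which were sequenced with paired ends. The study's text does not say whether messages with a poly(A) tail were selected. The dose was taken from the study's text, since the labels give the agent and time alone. The authors used HISAT2 2.2.0 for alignment to hg38, estimated abundances with StringTie and deposited whole-number counts per Ensembl gene, without normalization. Columns named NC were read as the DMSO libraries, the other condition of the labels, by replicate number. The step from abundance to counts and the strand setting are not given in the sources used here. Symbols, lengths and coordinates came from GENCODE release 44 on hg38, with an entry for 56105 of 64252 identifiers. Counts were filtered with filterByExpr, scaled with TMM factors (0.918 to 1.08) and compared between the groups with the quasi-likelihood test of edgeR 4.0.16 in R 4.3.3, with Benjamini-Hochberg adjustment over 17971 genes. The study used DESeq2. The steps were tested on simulated data. The standard error was the size of the log2 fold change divided by the square root of F. The biological coefficient of variation was 0.123. Replicates differed by more than counting error (chi-square per degree of freedom 23.6 with DMSO and 8.14 with dBET1), and SDs rest on 2 values.

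The members, lists and tests were chosen with earlier results of these data known. From each list of factors, the gene of highest CPM, up to 4 genes past both thresholds by smallest p and up to 2 called genes against the direction of the list's median were named. Alternatives were DESeq2 1.42.0, its size factors, total counts, no filter, at least 10 counts in every library, a replicate block, each library left out and counts divided by 2. Some genes are not reported here.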

Additional observations from a re-analysis of the deposited data

How the results depend on the processing

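H1-10, H2AX, H2AZ1, H3-3B and MACROH2A1 kept their direction and an adjusted p under 0.05 under each of 11 alternatives, from 1.16 to 1.49, 0.41 to 0.72, -1.03 to -0.74, -0.56 to -0.23 and -0.65 to -0.39 on the log2 scale. H2AZ2 lost its call without dBET1 replicate 2, with log2 fold changes of -0.53 to -0.39 when libraries were left out in turn, and kept it at -0.23 (adjusted p = 0.0436) with total counts only. H3-3A lost its call with DESeq2 (0.165), with its size factors (0.184), with no filter (0.145), with the replicate number as a block (0.20) and in 3 fits without a library (0.128 to 0.215 over all 4); the cause was not tested. It kept its call at 0.41 with total counts only, at 0.27 with at least 10 counts in every library and at 0.23 with counts divided by 2. H2AZ1 passed both thresholds with no filter and without DMSO replicate 1, so that 0 to 1 members were lower past both when libraries were left out and 1 with no filter. The labels do not say whether replicate numbers pair the libraries, and the counts of 4 libraries cannot settle it. The differences between replicates correlated at -0.0075 between the groups, and the block changed the call of no member other than H3-3A. Over all genes, higher genes at an adjusted p under 0.05 numbered 3356 to 5118 when libraries were left out, the fewest without dBET1 replicate 2, higher genes past both thresholds numbered 1940 with at least 10 counts in every library, and lower genes past both numbered 952 with total counts only. Past both thresholds, higher genes made up 66.4% of calls after TMM scaling, against 80.2% when only totals were scaled. Small lists moved in count. With total counts only, 5 genes of H3.3 deposition, 6 of H2A.Z exchange, 2 general chaperones and 1 of the 3′ end factors were higher, and 2 of H2AX signalling were lower. With no filter, 1 gene of H2A.Z exchange was higher. Higher general chaperones numbered 0 with DESeq2, with no filter and with the replicate block, and 2 with at least 10 counts in every library. When libraries were left out, higher genes numbered 1 to 3 for H2A.Z exchange, 3 to 5 for H2AX signalling, 0 to 2 for general chaperones and 0 to 1 for 3′ end factors, and lower genes of H2AX signalling 2 to 4. The median of the H3.3 deposition list was -0.014 to 0.085 when libraries were left out, the lowest without DMSO replicate 2, and that of the histone message 3′ end list was 0.074 with total counts only. The log2 ratio of H3-3B to H3-3A changed by -0.68 to -0.60 and that of H2AZ2 to H2AZ1 by 0.42 to 0.60 when libraries were left out. Depth limits statements on H2AJ and MACROH2A2, which had at most 5 counts.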

Other observations

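Genes without the symbol of a clustered histone gene whose annotated 3′ untranslated region held the histone stem-loop pattern were counted as well. This group was set by symbol and not by position, and was chosen after the data were seen. H3-4 and H3-7 were, beside H2AX, the histone genes among them, and neither passed the count filter. Of 40 genes that are not histones, 33 were tested, of which 12 were higher, 6 were lower and 15 did not pass an adjusted p of 0.05, with a median log2 fold change of 0.18, beside 28% higher and 27.6% lower of all tested genes. The clustered histone genes, all with the pattern, had a median of 2.25.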
